A study of Homo sapiens with 4 samples.

Results

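The RAB proteins are the largest family of RAS-related small GTPases. The genes described here are those whose symbol in the deposited intron lists is RAB followed by a number and at most 1 letter, which gave 55 of 15902 genes, with 246 of 142206 introns. They were measured in SUM159, an established triple-negative breast cancer cell line of mesenchymal character. Cells were exposed for 12 hours to H3B-8800, a small molecule that binds the SF3b complex of the spliceosome, or to DMSO, the solvent, as control. RNA was taken from the cytoplasmic fraction of both groups, polyA-selected and sequenced strand-specifically, with 2 libraries per group. The series calls these biological duplicates without describing the cultures, so p-values measure only the spread between these libraries. The question was how splicing inhibition changed the spliced and the intron-containing transcripts that had reached the cytoplasm.

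A RAB protein cycles between a GTP-bound form, which recruits effectors to a membrane, and an inactive GDP-bound form. Exchange factors load GTP and so switch a RAB on, GTPase-activating proteins stimulate GTP hydrolysis and switch it off, and geranylgeranyl groups anchor the protein in the membrane. Different RABs mark different compartments: RAB1 and RAB2 act between the endoplasmic reticulum (ER) and the Golgi, RAB5 on early endosomes, RAB7 on late endosomes, and RAB11, RAB8 and RAB10 in recycling and exocytosis.

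Each listed intron has a count of intronic reads and a count of spliced reads that span it. SF3b recognises the branch site of an intron, just upstream of the 3′ splice site, and a retained intron begins at the 5′ splice site or donor. Splice-site sequences are shown first, for RAB introns on which the results turn. They are read 5′ to 3′ from GENCODE release 29 transcripts (GRCh38) in which an annotated exon runs across the splice site. Capitals mark intron bases and lower case marks exon bases. The first 8 donor sites belong to introns whose intronic-to-spliced ratio was higher with H3B-8800, the ninth to an intron whose ratio was lower, and the last 2 to introns with too few intronic reads to test.
RAB5C intron 5 donor, chr17:42126740-42126757, minus strand: tagGTCAGTTGCTTCTCC
RAB5A intron 5 donor, chr3:19978401-19978418, plus strand: tagGTAAGATTAATATCT
RAB8A intron 3 donor, chr19:16121808-16121825, plus strand: atgGTAGGGACTTTTTGT
RAB8A intron 5 donor, chr19:16127524-16127541, plus strand: aagGTGGGCATGGTGGCA
RAB7A intron 3 donor, chr3:128798067-128798084, plus strand: cagGTAAGCACATGTCTT
RAB11B intron 2 donor, chr19:8400056-8400073, plus strand: cgcGTGCGTGTCGGCAGC
RAB11B intron 4 donor, chr19:8402563-8402580, plus strand: cagGTGGCCGGGGACCAG
RAB24 intron 6 donor, chr5:177302382-177302399, minus strand: acaGTAGCTGCTCCTCAG
RAB5A intron 1 donor, chr3:19947519-19947536, plus strand: cagGTAACCGAACCGCCC
RAB5C intron 2 donor, chr17:42130322-42130339, minus strand: gagGTGAGTGGGCATGAG
RAB24 intron 7 donor, chr5:177302113-177302130, minus strand: tggGTGAGTGCTGTGCTG

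All of these begin with GT. The last 2 continue as GTGAGT, which together with GTAAGT are common forms of the human donor site, whereas none of the other 9 has either form. Over RAB introns with a readable donor, GTAAGT or GTGAGT opened 11 of 44 (25.0%), against 24.9% of 18623 such introns of all genes, so the family as a whole had the usual share. It opened 0 of 8 RAB introns called higher, 0 of 1 called lower, 0 of 3 tested and not called, and 11 of 32 that were not tested for lack of reads. Among introns of all genes the share was 25.5% for those called higher, 16.7% for those called lower and 21.8% for those tested and not called. It was 25.1% for those not tested. The last 2 donors shown were picked and do not stand for the untested RAB introns, most of which had neither form. The donors were searched on the transcribed strand only, and introns without an annotated exon over the donor were not read. The chromosome that holds RAB2A was also left out of this reading. RAB2A introns 5 and 6, both called higher (log2 ratio differences 2.62 and 5.34), are therefore not in these counts, and their donors are unknown here.

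The 3′ ends of 2 neighbouring RAB24 introns are shown because the first was called and the second had too few reads to test. Pyrimidines made up 80.0% of the 20 bases before the closing AG in intron 6 and 75.0% in intron 7.
RAB24 intron 6 acceptor, chr5:177302176-177302228, minus strand: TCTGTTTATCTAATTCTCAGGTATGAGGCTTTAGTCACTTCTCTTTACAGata
RAB24 intron 7 acceptor, chr5:177301985-177302037, minus strand: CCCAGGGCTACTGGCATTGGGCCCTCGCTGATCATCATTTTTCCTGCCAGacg

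RAB5A and RAB5C are paralogs that keep their last intron at the same place in the coding sequence, and both last introns were called. The spliced junctions, 15 exon bases from each side, are identical at 24 of 30 positions, while the intron bases after the donor GT differ, as the lines above show.
RAB5C intron 5 spliced junction, chr17:42125884-42126769, minus strand: tcttcatggcaatagctaagaagcttccca
RAB5A intron 5 spliced junction, chr3:19978389-19983722, plus strand: tattcatggcaatagctaaaaaattgccaa

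The 4 libraries held 58000000 to 64000000 reads, with 11605061 to 14240258 spliced reads over all genes, of which 46246 to 50578 were RAB reads. Mesenchymal markers were present (VIM, 4880 to 6130 CPM, CPM being spliced reads scaled to equal library size), ESR1, PGR and CD3E had no read, CDH1 and ERBB3 had 0 to 2 reads, EPCAM 3 to 15 and PECAM1 27 to 57. All introns of the listed transcript were given for 33 members and fewer for 22, for example 2 of 7 for RAB6A, 2 of 5 for RAB1A and 1 of 5 for RAB18. All 246 RAB introns match introns of GENCODE on GRCh38, and 103 of them (41.9%) overlap an annotated exon of some transcript. Lower RNA per cell and fewer cells cannot be told apart in bulk RNA. One member stood apart before any comparison: in the second DMSO library RAB8A, which directs exocytosis and primary cilium formation, had 459 to 549 more spliced reads than in the first at each of its 7 introns. A surplus of that kind, at least 100 reads and with its largest value at most 1.25 times its smallest over the introns, was seen in 7 pairs of gene and library among 12705 genes with at least 3 introns. The RAB8A values are therefore given with and without that library.

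**Figure D1:**
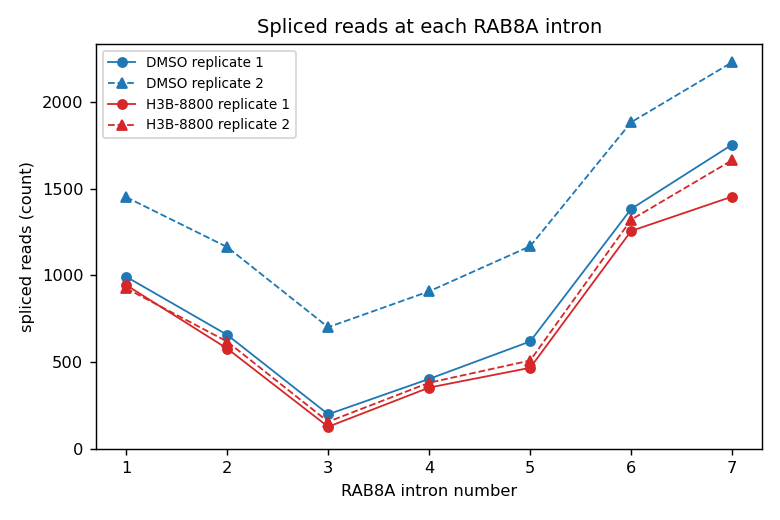
Spliced reads (count, vertical axis) at each of the 7 introns of RAB8A (horizontal axis) in the 4 libraries. The second DMSO library lies 459 to 549 reads above the first at every intron, while the first DMSO library lies close to the H3B-8800 libraries.

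Spliced reads of many RAB genes changed, and more rose than fell. Of the 55 genes, 40 had a mean of at least 1 CPM and were tested, and 20 rose, 8 fell and 12 passed in neither direction. Over all 9468 genes tested, 32.8% rose and 32.7% fell. The median log2 difference was 0.25 for the RAB genes and 0.01 for all genes. The values of the groups did not overlap in 34 of the 40 genes, against 82.5% of all genes tested. A change of at least 1.5-fold was reached by 11 of the genes that rose and 6 of those that fell, and of at least 2-fold by 3 and 4.

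The scaling moved this split. TMM scaling places the typical gene near 0, while scaling to the library totals shifted the median of all genes from 0.01 to -0.16. With library totals 14 RAB genes were higher and 12 lower, against 23.6% and 41.5% of all genes, and the RAB median was 0.08. All 8 falls and 14 of the 20 rises were kept, and the 20 rises stayed above 0 on the log2 scale.

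**Figure D2:**
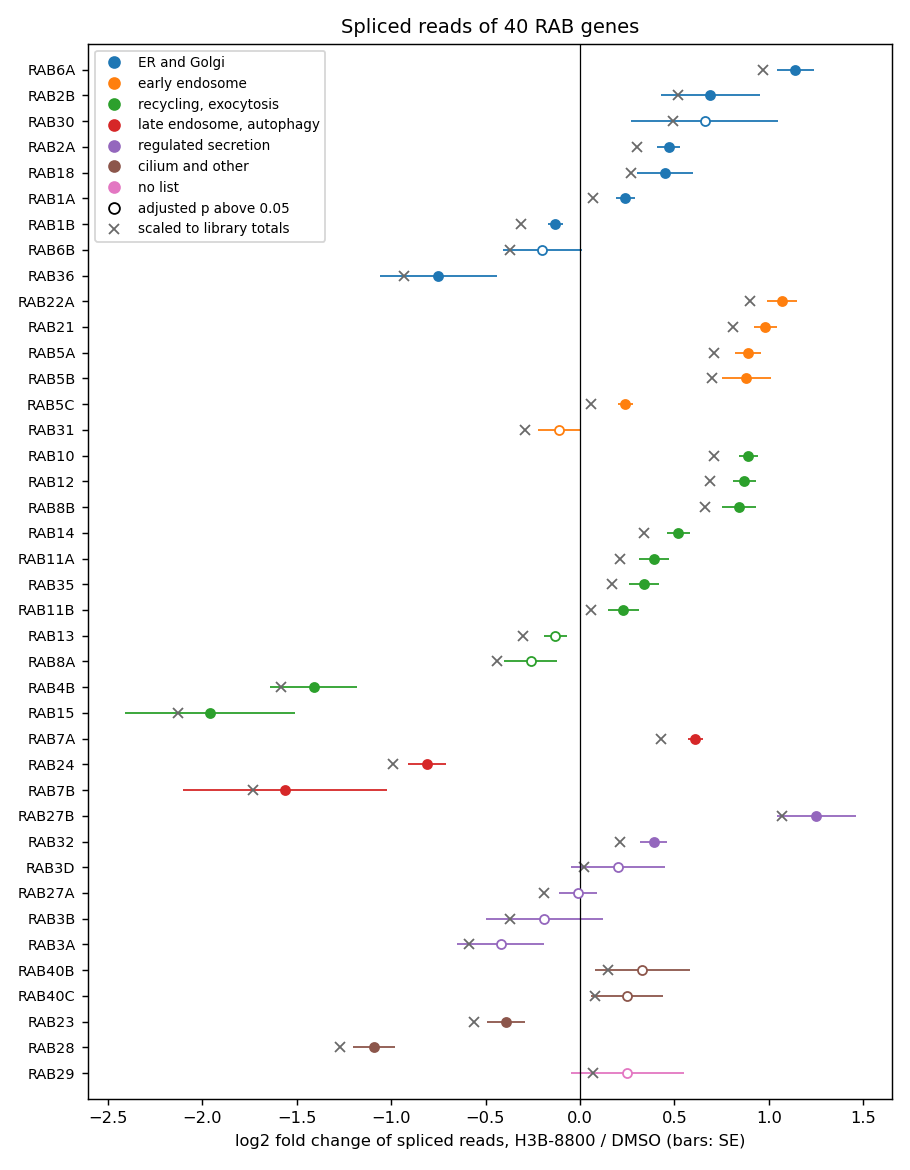
Log2 fold change of spliced reads with H3B-8800 against DMSO (horizontal axis, bars are SE) for 40 RAB genes (vertical axis), coloured by the compartment list of each gene. Filled points have an adjusted p under 0.05 and crosses give the value with library totals; the early endosome genes RAB5A, RAB5B, RAB21 and RAB22A lie between 0.88 and 1.07, and RAB15, RAB7B, RAB4B and RAB28 lie below -1.

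Of the early endosome RABs 5 of 6 tested members rose and none fell, with a median of 0.89; with library totals 4 were higher and 1 lower. RAB22A, which acts in endosome maturation and recycling, had 47.2 and 42.0 CPM in the DMSO libraries and 95.9 and 92.0 CPM with H3B-8800 (log2 difference 1.07 ± 0.08, SE; adjusted p = 9.04e-08). RAB21, which moves integrins through early endosomes, went from 96.1 and 92.6 CPM to 187 in both treated libraries (0.98 ± 0.06; adjusted p = 1.41e-08). In both genes every treated library was about double the controls. The 3 RAB5 paralogs, which recruit EEA1 and drive endosome fusion, did not rise alike. RAB5A had 80.4 and 77.6 CPM in DMSO against 155 and 138 CPM (0.89 ± 0.07; adjusted p = 1.72e-07), and RAB5B had 11.8 and 11.7 against 22.7 and 20.7 CPM (0.88 ± 0.13; adjusted p = 6.27e-05), from 2 listed introns. Without the more-read one the RAB5B difference was over 1.5 times as large and still called (adjusted p = 0.000909). RAB5C, the paralog with the most spliced reads per listed intron, rose from 417 and 424 to 498 and 497 CPM (0.24 ± 0.04; adjusted p = 0.000215). Its groups did not overlap, but with library totals its difference was 0.06 and it was not called. The difference between paralogs was not tested. RAB31, a RAB5-related GTPase, had 28.7 and 27.7 CPM in DMSO and 24.0 and 28.2 CPM with H3B-8800, and did not pass (-0.11 ± 0.11), but was called lower with library totals (-0.29).

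Among the RABs of ER and Golgi traffic, 5 of 9 tested genes rose and 2 fell, with a median of 0.45. With library totals 2 were higher and 2 lower. RAB6A, the Golgi RAB of retrograde transport, had 19.3 and 18.8 CPM in DMSO and 40.8 and 43.3 CPM with the compound (1.14 ± 0.10; adjusted p = 3.13e-07), read from 2 of its 7 introns. RAB2A, which acts on pre-Golgi membranes, went from 166 and 170 to 245 and 222 CPM (0.47 ± 0.06; adjusted p = 1.1e-05). With library totals it was 0.30 and still called. With the lowest intron count subtracted in genes of at least 3 listed introns it was 0.10 and not called. Its paralog RAB2B rose by 0.69 ± 0.26 from 3.48 and 5.15 to 7.87 and 6.12 CPM (adjusted p = 0.0319), a call that was lost with library totals (0.52), with DESeq2 (0.69) and without either H3B-8800 library (0.51 and 0.87) or the first DMSO library (0.43). The paralogs RAB1A and RAB1B, which tether ER vesicles at the Golgi, moved in opposite directions. RAB1A had 243 and 230 CPM in DMSO against 288 and 272 CPM (0.24 ± 0.05; adjusted p = 0.0013), and RAB1B 393 and 396 against 363 and 356 CPM (-0.13 ± 0.04; adjusted p = 0.0162). Both shifts were small. That of RAB1A rested on its intron 2, which held 77.8% and 76.7% of its spliced reads in DMSO: without it the difference was -0.05. With library totals RAB1A was not called (0.07) and RAB1B was -0.31. The RAB1B call was lost without the second H3B-8800 library (-0.12) and without the second DMSO library (-0.14). RAB36, a little-studied Golgi RAB, had 5.01 and 5.78 CPM in DMSO and 4.20 and 2.26 CPM with H3B-8800 (-0.75 ± 0.31; adjusted p = 0.0475). This call was lost with DESeq2 (-0.75), without a filter on low counts (-0.75), and without the second H3B-8800 library (-0.36), the first DMSO library (-0.86) or the second (-0.65), and the difference was -1.25 without the first H3B-8800 library. RAB18, of lipid droplets and the ER, was read from 1 intron and rose by 0.45 ± 0.15 (adjusted p = 0.0169), a call lost with library totals (0.27), with DESeq2 (0.44), without either H3B-8800 library (0.40 and 0.50) and without the first DMSO library (0.38). RAB30 (0.66 ± 0.39) and RAB6B (-0.20 ± 0.21) did not pass.

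In recycling and polarised exocytosis 7 of 11 tested genes rose and 2 fell, with a median of 0.34. With library totals 5 were higher and 4 lower, with a median of 0.17. RAB10, which carries membrane proteins to the cell surface, had 152 and 149 CPM in DMSO and 285 and 272 CPM with H3B-8800 (0.89 ± 0.05; adjusted p = 1.34e-08). RAB12, of recycling endosomes, went from 113 and 116 to 215 and 201 CPM (0.87 ± 0.06; adjusted p = 4.15e-08), and RAB8B from 35.4 and 40.9 to 67.0 and 69.4 CPM (0.84 ± 0.09; adjusted p = 1.97e-06). The treated libraries of these 3 genes all lay far above both controls. Smaller rises were seen in RAB14 (0.52 ± 0.06), RAB11A (0.39 ± 0.08) and RAB35 (0.34 ± 0.08). With library totals these were 0.34, 0.21 and 0.17, and RAB35 was no longer called. It was not called without the second H3B-8800 library either (0.24). RAB11A, the main RAB of the recycling endosome, had 68.1 and 65.8 CPM in DMSO and 91.8 and 83.2 CPM with the compound (adjusted p = 0.000517). RAB11B, its paralog, had 65.6 CPM in both DMSO libraries and 72.7 and 81.4 CPM with H3B-8800 (0.23 ± 0.08; adjusted p = 0.0177). The RAB11B call was lost with library totals (0.06), with DESeq2 (0.22), without the second H3B-8800 library (0.15) and without either DMSO library (0.22 each).

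The 2 falls of this group were among the largest of the family. RAB15, of early and recycling endosomes, had 3.41 and 3.76 CPM in DMSO and 0.437 and 1.37 CPM with H3B-8800 (-1.96 ± 0.45; adjusted p = 0.00187). It was called under each alternative run for it, with values from -3.00 to -1.38. RAB4B, of rapid recycling from early endosomes, fell from 8.14 and 10.6 to 3.32 and 3.71 CPM (-1.41 ± 0.23; adjusted p = 0.000147). Some GENCODE transcripts join RAB4B to the next gene, EGLN2, so its reads cannot be assigned to RAB4B alone. RAB13, of tight junctions, did not pass (-0.13 ± 0.06), but was called lower with library totals (-0.30).

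RAB8A did not pass: it had 418 and 661 CPM in DMSO and 453 and 449 CPM with H3B-8800 (-0.26 ± 0.14; adjusted p = 0.114). Its treated libraries lay between the controls. Without the second DMSO library the difference was 0.10. With the lowest intron count of the gene subtracted it was 0.18 and was called, so the sign turned. With library totals it was -0.44 and without the first DMSO library -0.56, both called. The same subtraction ended the calls of RAB2A (0.10), RAB2B (0.17), RAB11B (0.18), RAB1B (-0.11), RAB23 (-0.35) and RAB36 (-0.77). It moved RAB5C to 0.48 and RAB35 to 0.56, both still called. Nothing was subtracted from RAB18, which has 1 listed intron, but its call was also lost in that fit (0.43). Over all alternatives the RAB8A adjusted p ran from 6.33e-06 to 0.504.

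Of the late endosome and autophagy RABs 1 of 3 tested genes rose and 2 fell. RAB7A, which directs late endosomes to lysosomes, had 286 and 290 CPM in DMSO and 439 and 438 CPM with H3B-8800 (0.61 ± 0.04; adjusted p = 8e-08). Its replicates were nearly equal within each group. RAB7B, which acts between late endosomes and the trans-Golgi, went the other way, from 1.81 and 1.18 to 0.437 and 0.564 CPM (-1.56 ± 0.54; adjusted p = 0.0219). At 5 and 7 reads in the treated libraries it was not called by DESeq2 (-1.58) or without either H3B-8800 library (-1.39 and -1.75). RAB24, an atypical RAB linked to autophagy, fell from 36.6 and 40.8 to 23.0 and 21.1 CPM (-0.81 ± 0.10; adjusted p = 1.28e-05).

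In regulated secretion 2 of 6 tested genes rose and none fell, with 2 higher and 1 lower with library totals. RAB27B, which docks secretory vesicles and exosome-bearing bodies, had 7.10 and 4.52 CPM in DMSO and 13.5 and 14.1 CPM with the compound (1.25 ± 0.21; adjusted p = 0.00017). Its paralog RAB27A had 28.9 and 28.0 against 27.6 and 28.8 CPM and did not pass (-0.01 ± 0.10). RAB32, of melanosomes and mitochondria, rose from 53.4 and 55.0 to 70.0 and 71.8 CPM (0.39 ± 0.07; adjusted p = 0.000449). Only 2 introns are listed, and without the more-read intron 2 the RAB32 difference was 0.01 and was not called. RAB3A (-0.42 ± 0.23), RAB3B (-0.19 ± 0.31) and RAB3D (0.20 ± 0.25), all RABs of synaptic or granule exocytosis, did not pass. With library totals RAB3A was called lower (-0.59).

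In the remaining list 2 of 4 tested genes fell and none rose. RAB28, found at cilia, had 31.4 and 32.6 CPM in DMSO and 15.1 and 14.9 CPM with H3B-8800 (-1.09 ± 0.11; adjusted p = 1.42e-06). RAB23, a negative regulator of Hedgehog signalling, went from 31.6 and 32.6 to 25.7 and 23.4 CPM (-0.39 ± 0.10; adjusted p = 0.00419). RAB40B (0.33 ± 0.25) and RAB40C (0.25 ± 0.19), which carry a ubiquitin ligase adaptor domain, and RAB29 (0.25 ± 0.30), which was in no list, did not pass. RAB40B was called higher without its most-read intron (0.73).

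**Figure D3:**
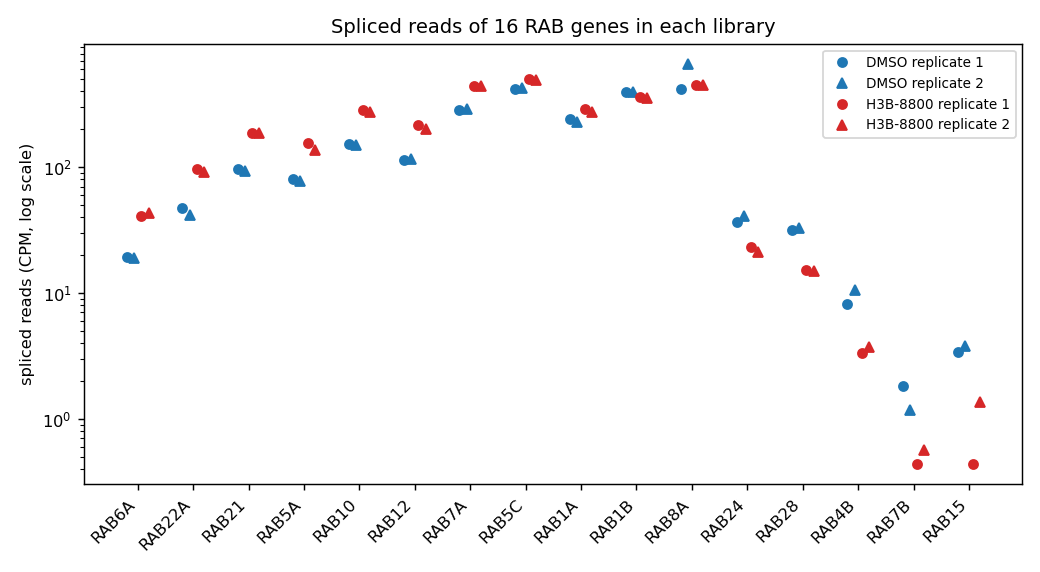
Spliced reads (CPM, log axis) of 16 RAB genes (horizontal axis) in each of the 4 libraries, blue for DMSO and red for H3B-8800. The red points of RAB6A, RAB22A, RAB21, RAB5A, RAB10 and RAB12 lie above both blue points, those of RAB24, RAB28, RAB4B, RAB7B and RAB15 lie below, and RAB8A has 1 high DMSO library at 661 CPM.

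Per listed intron, a rough way to compare genes, the highest mean levels in DMSO were 118 CPM for RAB1A, 105 for RAB5C, 78.9 for RAB1B, 77.1 for RAB8A and 57.6 for RAB7A. Such a level depends on which introns are listed. RAB1A is read from 2 of its 5 introns, with 777 and 770 spliced reads in DMSO at intron 1 and 2719 and 2533 at intron 2. With H3B-8800 RAB1A had 140 CPM per intron, RAB5C 124, RAB7A 87.7, RAB1B 71.9 and RAB8A 64.4, which placed RAB7A above RAB1B. The RAB8A level in DMSO rests on the library with the surplus: in the first DMSO library alone it was 59.7 CPM per intron, below its level with H3B-8800. Differences between neighbours in this order were not tested. Of the 15 members below the filter, 9 had no spliced read in any library. The other 6 had few: RAB26, a secretory granule RAB, had 14 reads in each DMSO library and none in the treated libraries, and RAB17, of polarised epithelial cells, had 4 and 5 reads in DMSO and 24 and 10 with H3B-8800. Another 7 RAB names on the lists, RAB4A, RAB9A and RAB34 among them, were not analysed here.

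The genes that load, activate, switch off and read RABs changed in both directions. Of the prenylation and recycling factors 2 of 7 tested genes rose and 3 fell (2 and 5 with library totals), and the subunits of RAB geranylgeranyl transferase moved apart. RABGGTB, the catalytic beta subunit, had 261 and 276 CPM in DMSO and 491 and 474 CPM with H3B-8800 (0.85 ± 0.05; adjusted p = 8.93e-09). RABGGTA, the alpha subunit, had 36.1 and 34.4 against 16.2 and 14.3 CPM (-1.21 ± 0.11; adjusted p = 6.1e-07). CHM, the escort protein REP1 that presents RABs to this enzyme, had 3.90 and 4.66 CPM in DMSO and 9.97 and 7.65 CPM with H3B-8800 (1.04 ± 0.23; adjusted p = 0.00155).

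Exchange factors gave 8 rises and 12 falls among 43 tested genes, with a median of -0.02, and 6 higher and 17 lower with library totals. DENND4C, which activates RAB10, had 75.2 and 74.0 CPM in DMSO and 217 and 263 CPM with H3B-8800 (1.68 ± 0.08; adjusted p = 3.03e-09), and RIC1, which forms the RAB6A exchange factor with RGP1, rose by 1.28 ± 0.10. TRAPPC4 of the TRAPP complexes that act on RAB1 went down by 1.24 ± 0.09, from 45.4 and 45.7 to 19.4 and 19.1 CPM, and DENND5A, an exchange factor for RAB39, had 145 and 147 against 67.9 and 69.7 CPM (-1.09 ± 0.06; adjusted p = 1.24e-08). GTPase-activating proteins gave 11 rises and 10 falls among 32, and 6 higher and 12 lower with library totals. TBC1D9 rose from 23.2 and 24.1 to 63.0 and 58.7 CPM (1.36 ± 0.09), and EVI5L went from 33.7 and 33.8 to 5.34 and 5.96 CPM (-2.57 ± 0.13; adjusted p = 4.69e-09). Another member of this list, TBC1D25, had a surplus like that of RAB8A in 1 library of each group. Effectors gave 10 rises and 5 falls among 28 with TMM, but 7 higher and 11 lower with library totals. The shares of all genes under each scaling are those given above (32.8% and 32.7%, and 23.6% and 41.5%). EEA1, the RAB5 tether of early endosomes, had 46.1 and 43.8 CPM in DMSO and 80.7 and 76.4 CPM with H3B-8800 (0.80 ± 0.08; adjusted p = 9.13e-07), whereas APPL2, a RAB5 effector of another endosome class, went from 56.1 and 52.3 to 20.8 and 19.3 CPM (-1.43 ± 0.09; adjusted p = 2.94e-08). USO1, the RAB1 tether p115, had 228 and 219 against 139 and 129 CPM (-0.74 ± 0.06).

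Other small GTPase families gave 9 rises and 5 falls among 20 ARF, ARL and SAR genes (median 0.06), and 8 and 2 among 13 RAS genes (median 0.55). With library totals the first became 6 higher and 8 lower (median -0.11), and the RAS genes kept 8 and 2 (median 0.37). Differences between families were not tested.

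Intronic reads of the RAB genes rose at the same time. Summed over the family there were 2.40 and 2.19 intronic reads per 100 spliced reads in the DMSO libraries and 4.65 and 5.03 with H3B-8800, against 4.42 and 4.43, and 8.92 and 8.99, over all genes. As a sum, RAB transcripts thus held fewer intronic reads per spliced read than the whole set in every library. Genes with many spliced reads weigh most in this sum, and it does not hold for each member. In DMSO RAB5C had 0.450 and 0.492 intronic reads per 100 spliced reads, and RAB32 had 28.1 and 23.8. Of 23 RAB genes with a mean of at least 10 intronic reads, 17 rose and 1 fell when scaled to library totals, against 58.3% and 4.37% of 7900 genes. TMM scaling, which places the typical gene's intronic reads near 0, left 5 higher and 2 lower, against 20.2% and 20.1%. The RAB calls were lost without either treated library, a fit that leaves that group without a replicate. The share of all genes called in those fits is not given here. The loss therefore cannot be read as particular to RAB genes.

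The ratio of intronic to spliced reads does not depend on the scaling. Of 23 RAB genes 12 had a higher ratio and 1, RAB32, a lower one, against 65.4% and 2.35% of 7566 genes, and the median log2 difference was 0.97 against 1.35. RAB5C changed most in this fit: it had 0.450 and 0.492 intronic reads per 100 spliced reads in DMSO and 5.41 and 6.03 with H3B-8800 (log2 difference 3.59 ± 0.23; adjusted p = 6.73e-09). Over introns without an annotated exon inside, RAB5C was at 2.25, below RAB1B (3.25) and RAB4B (2.83). Without the intron with the most intronic reads of each gene it was at 2.26, below RAB8A (3.23) and RAB2A (2.80). RAB5C was still called in both. RAB2A had 0.587 and 0.205 against 2.78 and 2.36 (2.69 ± 0.38; adjusted p = 1.74e-05). RAB4B went from 23.1 and 19.7 to 161 and 111 (2.64 ± 0.44; adjusted p = 7.94e-05), so that its intronic reads came to outnumber its spliced reads. RAB24 had 1.14 and 2.56 against 9.51 and 14.1 (2.64 ± 0.45; adjusted p = 8.59e-05), RAB14 1.23 and 1.34 against 5.04 and 4.66 (1.91 ± 0.29), and RAB1B 0.301 and 0.527 against 1.33 and 1.88 (1.95 ± 0.32). In RAB8A the ratio rose by 1.73 ± 0.30, from 0.849 and 0.400 to 1.72 and 2.19, and by 1.20 without the second DMSO library. It was not called over introns without an annotated exon inside (0.84).

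Spliced reads are the denominator of this ratio, so it also rises where they fall. In RAB28 the intronic reads scaled to library totals did not pass (0.40 ± 0.29; adjusted p = 0.244). Those of RAB4B (1.07), RAB24 (1.64) and RAB1B (1.64) were called higher. A higher ratio went with lower spliced reads in 4 genes (RAB4B, RAB24, RAB28 and RAB1B), with higher spliced reads in 6 (RAB5C, RAB2A, RAB14, RAB7A, RAB11B and RAB21) and with neither in RAB8A and RAB31. The RAB21 call was marginal (0.83 ± 0.36; adjusted p = 0.0499): it was lost without the first H3B-8800 library (0.60), without either DMSO library (1.12 and 0.60), at 3 reads of each kind (0.83), without annotated exons (0.77) and without its intron with the most intronic reads (0.67). That of RAB31 was also lost without such an intron (0.71). RAB10, RAB12, RAB22A and RAB5A, whose spliced reads rose strongly, had ratio differences of 0.06 ± 0.29, 0.12 ± 0.26, 0.37 ± 0.32 and 0.50 ± 0.28, none of which passed. Without the intron with the most intronic reads RAB10 was called higher (1.81) and RAB5A lower (-1.14), and RAB10 was called higher over introns without an annotated exon (1.76). RAB35 (0.82) and RAB40C (0.97) did not pass either, but RAB35 was called higher with the replicate number as a block (0.83), without the second DMSO library (1.43) and without its intron with the most intronic reads (1.99), and RAB40C without the first DMSO library (1.56). RAB32 had 28.1 and 23.8 intronic reads per 100 spliced reads in DMSO and 9.75 and 14.0 with H3B-8800 (-1.13 ± 0.26; adjusted p = 0.00116). Its intronic reads fell from 216 and 188 to 78 and 125, nearly all of them at intron 1, where spliced reads were 209 and 215 in DMSO and 157 and 194 with H3B-8800. The higher spliced reads of the gene lay at its other intron, and the lower ratio was called under each alternative that could test it.

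**Figure D4:**
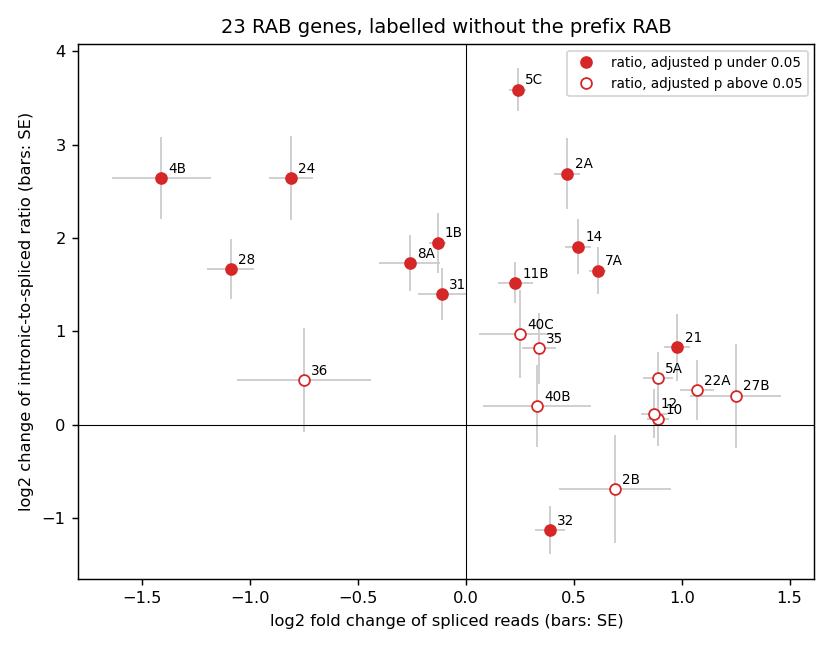
Log2 change of the intronic-to-spliced ratio (vertical axis) against the log2 fold change of spliced reads (horizontal axis) for 23 RAB genes, with SE bars. Genes with a higher ratio lie on both sides of 0 on the horizontal axis, from RAB4B at -1.41 to RAB21 at 0.98, and RAB32 lies lowest at -1.13.

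The rise of intronic reads was spread unevenly over the introns of a gene. Of the 246 RAB introns 94 had no intronic read in any library and 43 had a mean of at least 10, of which 23 rose and 1 fell, against 48.2% and 5.74% of 12013 introns. For the ratio, 40 introns of 22 genes could be tested: 21 introns in 14 genes were higher and 3 lower, against 56.5% and 2.88% of 9937 introns, with medians of 1.60 and 1.62. An annotated exon of either strand overlapped 27 of these RAB introns, of which 14 were higher. Of the 13 without such an exon, 7 were higher. Over all genes 53.5% with and 62.7% without one were higher. Reads of such exons and of retained introns were not told apart. The last intron of RAB5C (intron 5, chr17:42125899-42126754, 856 bp), whose donor is shown above, had 17 and 18 intronic reads in DMSO and 263 and 319 with H3B-8800, beside 1505 and 1465 against 1669 and 1770 spliced reads (log2 ratio difference 3.83 ± 0.29; adjusted p = 1.69e-06). Its intron 4 rose from 6 and 12 to 40 and 49 intronic reads (2.25 ± 0.47), and its introns 2 and 3 had 0 to 4 in every library, although intron 3 had more spliced reads than any other. The reads gained in RAB5C thus lay in its last introns (intron 1 is not listed). The last intron of RAB5A, at the matching place (chr3:19978404-19983707), also rose, from 13 and 10 to 52 and 77 reads (1.74 ± 0.39; adjusted p = 0.00246).

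RAB11B intron 4 (chr19:8402566-8403412, 847 bp), also the last of its gene, had the most intronic reads of the RAB introns in both treated libraries, with 156 and 147 intronic reads in DMSO and 374 and 463 with H3B-8800. Per 100 spliced reads these were 39.1 and 37.2 against 112 and 106 (1.52 ± 0.25; adjusted p = 0.000384). Intronic reads thus exceeded spliced reads at this intron in both treated libraries. An annotated exon of the same strand overlaps this intron, and whether its reads belong to that exon was not tested. RAB31 intron 6 rose from 17 and 18 to 74 and 85 reads (2.87 ± 0.43; adjusted p = 0.000191) and RAB7A intron 3 (chr3:128798070-128806371) from 6 and 2 to 40 and 58 (3.34 ± 0.49; adjusted p = 0.000165). RAB1B rose at its last 2 introns: intron 5, of 108 bp, had 4 and 2 intronic reads in DMSO and 14 and 28 with H3B-8800 (3.26 ± 0.63), and intron 4 had 6 and 15 against 35 and 45 (2.24 ± 0.44). RAB2A intron 6 had 1 and 0 against 30 and 23 reads, and RAB8A intron 3 had 2 and 0 against 16 and 25. With so few DMSO reads, the ratios per library read were 56.5 (95% exact interval 9.72 to 2270) and 21.9 (5.68 to 187). These intervals cover counting error only and take reads as independent, so they may be too narrow. RAB8A intron 5 (chr19:16127527-16128025) had 3 and 1 against 27 and 14 reads (4.12 ± 0.70), and 3.06 without the second DMSO library. Intron 3 had 5.81 ± 0.81 and 3.76 without it. RAB24 intron 6 (218 bp), whose ends are shown above, had 3 and 11 against 14 and 18 intronic reads, while its spliced reads went from 65 and 83 to 25 and 33 (2.58 ± 0.66; adjusted p = 0.00546). Its intronic reads alone did not pass (1.27 ± 0.71; adjusted p = 0.155), so this ratio call also rests on the fall of spliced reads.

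The 3 lower introns were all the first of their gene. Over all genes 82 of 1586 first listed introns were lower, 171 of 6148 internal ones and 28 of 1988 last ones. Lower calls were thus more frequent among first introns at large. RAB32 intron 1 (chr6:146544122-146549463) had 214 and 186 intronic reads in DMSO and 78 and 115 with H3B-8800 (-0.79 ± 0.30; adjusted p = 0.0394), RAB10 intron 1 had 29 and 50 against 19 and 29 (-1.24 ± 0.41; adjusted p = 0.0219), and RAB5A intron 1 had 23 and 28 against 18 and 15 (-1.08 ± 0.42; adjusted p = 0.0424). These calls are weak: without each of the 4 libraries in turn 0 or 1 lower intron was called, and RAB5A and RAB10 carried a higher intron further along (RAB10 intron 3, 1.73 ± 0.44).

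By position, 2 of 13 first listed RAB introns were higher, 11 of 17 internal ones and 8 of 10 last ones, with median log2 ratio differences of 0.10, 2.25 and 2.03. Over all genes 39.3%, 57.8% and 67.1% were higher, with medians of 0.87, 1.68 and 1.98, so the order of first before last holds for introns at large. Of these RAB introns 12 of the 13 first ones and 8 of the 10 last ones are also first and last in the transcript. By length, 5 of 5 RAB introns of up to 1000 bp, 12 of 23 of over 1000 and up to 10000 bp and 4 of 12 longer ones were higher, against 69.8%, 60.0% and 29.8% of all introns. Position and length go together, and their parts were not tested. The limit of a mean of 10 reads over the 4 libraries let some introns in mainly through their treated libraries. RAB1B intron 5, for example, had 4 and 2 intronic reads in DMSO and 14 and 28 with H3B-8800. The counts by position and length therefore lean towards introns that rose, for RAB introns and for all introns alike.

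**Figure D5:**
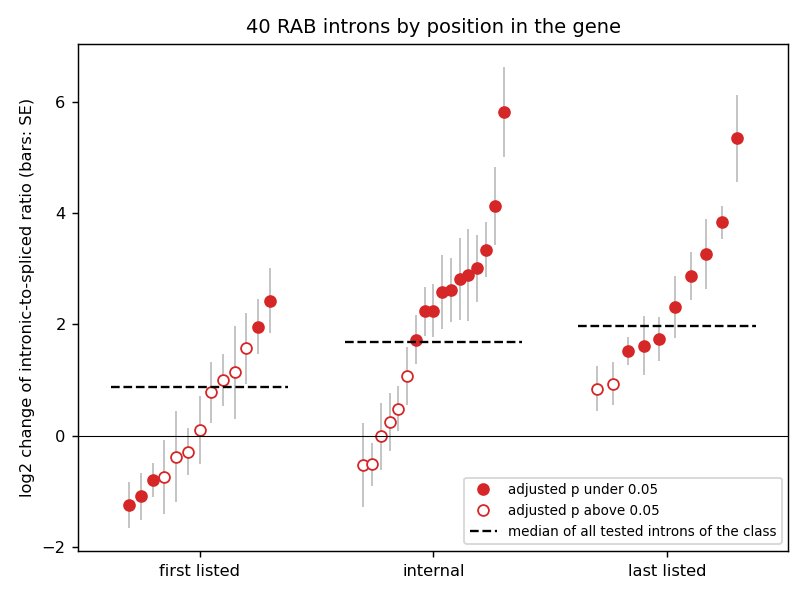
Log2 change of the intronic-to-spliced ratio (vertical axis, bars are SE) of 40 RAB introns, grouped by whether they are the first, an internal or the last listed intron of their gene. Dashed lines are the medians of all tested introns of that class (0.87, 1.68 and 1.98), and the 3 introns called lower are all in the first class.

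Few RAB introns were called for a changed share of their gene's spliced reads. With 2 libraries per group this does not show that the other shares stayed equal. Among 105 RAB introns with at least 50 spliced reads there and at the other introns of the gene, the share was higher at 3 and lower at 3. These are 2.86% each, against 1.14% and 1.29% of 32329 introns. In RAB5C intron 2 held 12.8% and 14.3% of spliced reads in DMSO and 9.12% and 9.50% with H3B-8800 (log2 difference -0.61 ± 0.09; adjusted p = 0.00143), and intron 5 held 25.1% and 24.0% against 29.3% and 28.7% (0.33 ± 0.08; adjusted p = 0.0343). The RAB5C intron with the most intronic reads thus had a larger share of spliced reads as well. RAB28 intron 2 held 34.1% and 36.8% against 49.7% and 48.1% (0.80 ± 0.21; adjusted p = 0.0493). For RAB1A only 2 introns are listed, so its calls at intron 1 (-0.39 ± 0.09) and intron 2 (0.39 ± 0.09) are 1 measurement. The lower share of RAB8A intron 3 had 3.31% in the first and 7.38% in the second DMSO library and 2.45% and 2.80% with H3B-8800, so most of the difference lies in the library with the surplus.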

How the data were processed

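The submitters' processing notes name HISAT2 2.0.4 and, as builds, hg38 and mm10; the introns listed are human and coordinates are on hg38. The authors deposited, for each library, a list of introns with 2 read counts and an RPKM value. The counting method and its use of strand are not given in the sources used here, so overlapping and antisense genes are uncertain. The first count was taken as intronic reads and the excess of the second over the first as spliced reads, a reading inferred from the values. A read over several introns counts at each. Library totals of 58000000 to 64000000 were recovered from the deposited RPKM. For 18 introns no second count was given.

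Counts were tested over all features by quasi-likelihood in edgeR 4.0.16 under R 4.3.3, with Benjamini-Hochberg adjustment, threshold 0.05. Spliced reads per gene were scaled by TMM (mean of at least 1 CPM), and intronic reads by library totals (mean of at least 10). For the ratio, both kinds entered 1 model with a term per library and the interaction of kind with treatment (mean of at least 10 each). The test of an intron's share of spliced reads was added after seeing the data. SEs were approximated from the F statistic. Scripts were tested on simulated data. Alternatives were other scalings and filters, DESeq2 1.42.0, a replicate block and leaving out each library. Even numbers made up 70.0% of the non-zero RAB intronic counts, so mates may have been counted singly and reads are not independent.

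Members and lists were chosen with earlier results of these data known. Genes named are the 10 largest RAB changes of spliced reads and of the ratio in each direction that passed, 9 core RABs, and, by smallest adjusted p in either direction, 10 RAB introns and 3 genes of each other list. Other RAB genes, and list members left out, were chosen after their values were seen. Some members of the other lists, and 1 other gene family, are not reported here.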

Additional observations from a re-analysis of the deposited data

How the results depend on the processing

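Of the alternatives, edgeR's RLE size factors changed the call of no named RAB gene. The counts that follow are of RAB genes and introns only. Apart from the scalings of reads per gene given above, the shares of all features under these alternatives are not given. Whether RAB members shifted differently from all features therefore cannot be judged from these counts. The 20 rises and 8 falls of spliced reads became 5 falls with a mean of at least 5 CPM and 5 with the lowest intron count subtracted, an alternative chosen after seeing the data, as was the use of introns without an annotated exon. Without each library in turn 5 to 7 falls were called, 5 without the second library of either group. RAB1A turned to -0.05 without its most-read intron, and RAB8A from -0.26 to 0.18 with the lowest count subtracted and between -0.56 and 0.10 when a library was left out. The 17 higher and 1 lower genes for intronic reads became 5 and 2 with TMM, 7 higher without annotated exons, 10 higher at 50 reads and 11 by DESeq2. None was lower without the intron with the most intronic reads, where 13 of 18 genes had an unadjusted p under 0.05. Leaving out a library gave 0 to 16 higher and 0 to 1 lower. For the gene ratio, 2 were lower at 3 reads of each kind, and 7 were higher both at 50 reads and without annotated exons. For intronic reads per intron, TMM gave 12 higher and 6 lower, introns without annotated exons 7 higher and a mean of 50 reads 2 higher, while leaving out a library gave 0 to 25 higher and 0 to 1 lower. The RAB intron calls for intronic reads were lost without either H3B-8800 library, fits that leave that group without a replicate. For the intron ratio, 0 were lower at 3 reads of each kind (35 of 75 at an unadjusted p under 0.05), 2 higher and 1 lower at 50 reads, and 7 higher and 0 lower without annotated exons. Leaving out a library gave 13 to 21 higher introns, 13 without the first H3B-8800 library, and 0 to 1 lower. For the share of spliced reads it gave 0 to 4 higher and 1 to 6 lower, with 0 higher and 1 lower without either H3B-8800 library, 1 and 1 without the second DMSO library and 6 lower without the first; the unadjusted p was under 0.05 for 18 introns without each H3B-8800 library. The labels give both groups replicate numbers 1 and 2, but samples of 1 number did not deviate together (r = 0.0489). With the number as a replicate block 1 intron ratio was lower in place of 3, 6 shares were lower in place of 3, and no other count moved by over 1.5 times. The causes of these shifts were not tested, except that higher read limits and leaving out introns leave fewer features to test. Depth limited the intronic results most: 94 of 246 RAB introns had no intronic read and 43 reached the mean of 10.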
